A study of Homo sapiens with 9 samples.

Results

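Cells in which HAND2 had been knocked down were compared directly with cells in which MYCN had been knocked down, gene by gene, to find where the transcriptomes that follow the loss of each factor part. The comparison used 6 of the 9 libraries of the study, the 3 labelled siHAND2 and the 3 labelled siMYCN, chosen by those labels alone, and covered every gene of the deposited table. All libraries came from LAN5, an established human neuroblastoma cell line that carries extra copies of MYCN. Every group received a small interfering RNA (siRNA, a short RNA that leads to degradation of a matching transcript) by electroporation and was harvested 72 h later. Group siMYCN received the siRNA named siMYCN_2, group siHAND2 the one named siHAND2_3, and the 3 control libraries (siCTR) a control siRNA. Each factor was thus targeted by 1 siRNA sequence in 1 cell line, and an effect of the loss of the target cannot be told apart from an off-target effect of that siRNA. The labels number the replicates of a group but do not say that they were separate cultures, so the p-values measure the spread between these libraries, which may be technical.

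MYCN is a helix-loop-helix leucine-zipper protein that binds E-box sequences with its partner MAX and is known for driving ribosome production, nucleotide synthesis and growth, and its amplification marks aggressive neuroblastoma. HAND2 is a helix-loop-helix protein without a zipper that binds other E-boxes with E-proteins such as TCF3, TCF4 and TCF12. It is required for sympathetic neurons to form and to make noradrenaline, and belongs to the group of transcription factors that hold noradrenergic neuroblastoma cells in their identity.

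Values are CPM (the reads of a gene scaled to a common total per library), and differences are siHAND2 minus siMYCN on the log2(CPM + 1) scale, so a positive value means higher after the HAND2 siRNA. Depth was 24.8 to 29.2 M reads in the siMYCN libraries and 25.1 to 30.4 M in the siHAND2 libraries, estimated from the smallest steps between CPM values. Defining markers of sympathetic neuroblastoma cells were present, 12 of 12 passing the filter on low values. Markers of Schwann, leukocyte and endothelial cells were near 0, whereas fibroblast markers were not and are given with the matrix genes. Chromaffin cells share genes with sympathetic neurons, and the 8 listed for them summed to 747 to 811 CPM in siMYCN and 556 to 651 CPM in siHAND2. The 7 Schwann-lineage genes found in the table summed to 3.77 to 3.97 CPM in siMYCN and 2.85 to 3.62 CPM in siHAND2. The 5 leukocyte genes summed to at most 1.10 CPM in any of these 6 libraries and the 8 endothelial genes to at most 2.45 CPM. None of these 3 lists had a member past the filter. In RNA from whole cultures, fewer cells of a type and less RNA per cell cannot be told apart.

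The targets came first. HAND2 (chromosome 4, 173524969 to 173530229; coordinates are GRCh38 throughout) measured 588, 557 and 568 CPM after the MYCN siRNA and 268, 267 and 280.4 CPM after the HAND2 siRNA. All 3 siHAND2 libraries lay below all 3 siMYCN libraries, with a log2 difference of -1.07 (standard error 0.04, limma, Benjamini-Hochberg adjusted p = 9.48e-12). MYCN (chromosome 2, 15940550 to 15947007) was also lower in siHAND2, at 898, 969 and 877 CPM against 1338, 1245 and 1285 CPM in siMYCN, a log2 difference of -0.50 (adjusted p = 6.21e-07). The siCTR mean was 1842 ± 54.2 CPM (SD, n = 3), so cells labelled siHAND2 had lost more MYCN transcript than those labelled siMYCN, to 49.6% against 69.98% of control. At the transcript level the contrast is therefore one between less HAND2 with less MYCN in siHAND2, and a milder fall of MYCN with more HAND2 in siMYCN. Protein of either factor was not measured here. The antisense genes overlapping both targets also differed, MYCNOS by -1.12 (adjusted p = 5.84e-09) and HAND2-AS1 by 0.52 (adjusted p = 1.64e-06). Use of strand in the counting is not given in the sources used here, so reads of each pair may be mixed.

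The upstream window of MYCN is shown because its transcript fell after the HAND2 siRNA, and because the sites that HAND2 prefers with its E-protein partners are often given as CATCTG, which reads CAGATG on the other strand. The window runs from 250 bases before to 50 after the annotated start (RefSeq, GRCh38.p14, chr2:15940300-15940599, plus strand), and the capitals mark that hexamer.
MYCN: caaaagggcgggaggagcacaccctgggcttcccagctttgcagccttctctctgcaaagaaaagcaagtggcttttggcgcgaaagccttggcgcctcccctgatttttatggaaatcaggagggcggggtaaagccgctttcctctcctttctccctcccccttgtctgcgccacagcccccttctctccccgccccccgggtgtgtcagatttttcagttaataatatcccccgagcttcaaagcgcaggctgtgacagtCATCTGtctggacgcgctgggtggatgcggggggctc
It holds 1 match, 13 bases after the start. CATCTG on either strand occurred in 10.2% of the 15221 windows of genes tested, and in 14.7% of all 35116 RefSeq windows of this length, and a match describes letters, not binding.

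Of 14495 genes tested, 3892 differed between the knockdowns (26.9%), 1650 higher in siHAND2 (11.4%) and 2242 lower (15.5%); 5528 had an unadjusted p under 0.05. The excess of lower genes depended on the scaling: 1974 were higher and 2003 lower under median-ratio scaling, and 2076 higher and 1924 lower under quantile normalization, so the shares of 11.4% and 15.5% hold for CPM as deposited. Most differences were small, with a median size of 0.30 on the log2 scale among the genes that differed and a median of -0.01 over all genes tested. At least 2-fold differences numbered 197 genes (1.36%), 74 higher and 123 lower in siHAND2, a count that was 322 with a pseudocount of 0.1, 100.0 with 5 and 350.0 with precision weights. The 3 libraries of one group lay wholly above or below the other 3 for 5610 genes (38.7%). Calls reached smaller differences at higher levels. Their median size was 0.52 among genes in the lowest quartile of mean CPM and 0.23 in the highest.

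**Figure D1:**
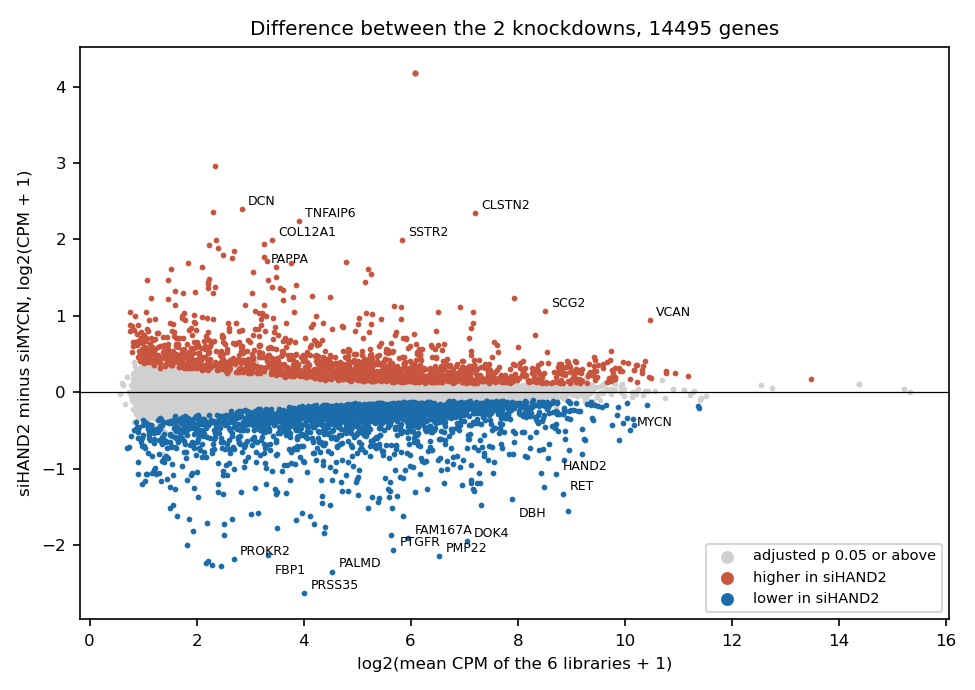
Each point is a gene, with its mean level over the 6 libraries on the x axis (log2 of CPM + 1) and the difference siHAND2 minus siMYCN on the y axis (log2 of CPM + 1); colours mark genes past an adjusted p of 0.05. Large differences occur in both directions, and the topmost point is 3 identical rows beside ribosomal RNA genes that share reads and are not described.

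Grouped by function, the genes that differed ran largely one way in several lists. Most ribosomal proteins were higher in siHAND2, as were 23 of 58 factors of ribosome assembly and 19 of 38 matrix genes. Most genes for catecholamine handling, acetylcholine signalling and secretory granules were lower, as were 19 of 39 genes of synaptic release and 14 of 28 of sterol synthesis. The lists for mitosis and interferon response held few genes that differed. Over all genes tested, 11.4% were higher and 15.5% lower. For acetylcholine, granule, synaptic release and sterol genes the median in siHAND2 lay near control and that in siMYCN above it.

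**Figure D2:**
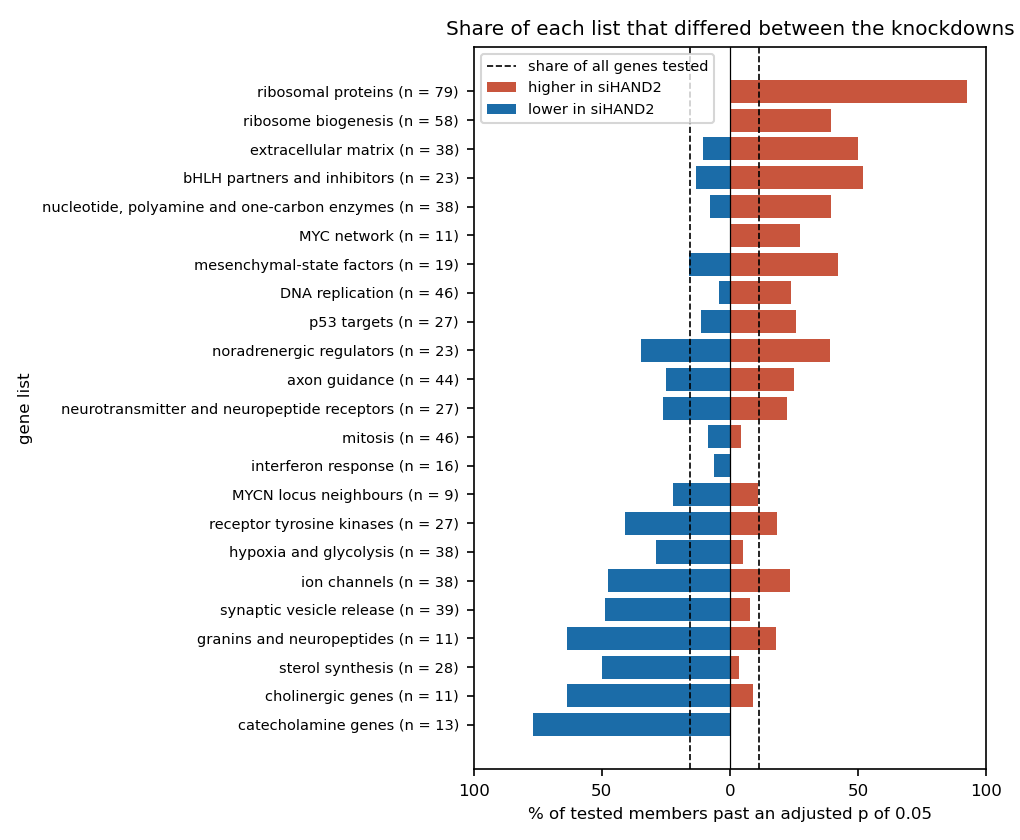
Bars give, for each gene list (number tested in brackets), the percentage of tested members past an adjusted p of 0.05 that were higher (right) or lower (left) in siHAND2 than in siMYCN; dashed lines mark the same shares over all 14495 genes, 11.4% and 15.5%. Ribosomal proteins reach furthest to the right, with 73 of 79, and catecholamine genes furthest to the left, with 10 of 13.

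The noradrenaline pathway was lower in siHAND2 than in siMYCN along most of its length. Of 17 listed genes found in the table, 13 passed the filter, and 10 of these were lower in siHAND2 and 0 higher, against 15.5% and 11.4% of all genes tested, with a list median of -0.55 beside -0.01 for all genes. DBH, which converts dopamine to noradrenaline (chromosome 9, 133636363 to 133659329), measured 127, 127 and 137 CPM in siHAND2, compared with 361, 346 and 325 CPM in siMYCN. The groups did not overlap, every siHAND2 library was below every siMYCN library, and the difference was -1.39 (standard error 0.05, limma adjusted p = 1.13e-11). Control cells lay between, at 263 ± 18.2 CPM (SD, n = 3). The comparisons of either knockdown with siCTR share those controls and called 35.9% (siMYCN) and 29.9% (siHAND2) of genes tested. For DBH they gave 0.38 in siMYCN and -1.01 in siHAND2. The list medians against these controls were 0.36 in siMYCN and -0.27 in siHAND2, so the gap held a rise in siMYCN as well as a fall in siHAND2. SLC6A2, the noradrenaline reuptake transporter (chromosome 16, 55655604 to 55706192), measured 56.1, 50.4 and 53.7 CPM with siMYCN against 17.8, 17.8 and 18.5 CPM with siHAND2. The siHAND2 libraries were tight and low, and the difference was -1.51 (adjusted p = 4.23e-11).

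Other synthesis and storage genes were lower in siHAND2 than in siMYCN as well. TH, the rate-limiting enzyme of catecholamine synthesis, was scarce in this line and measured 3.91, 3.91 and 4.42 CPM after the MYCN siRNA and 1.18, 1.59 and 1.52 CPM after the HAND2 siRNA. The groups did not overlap (-1.06, adjusted p = 1.8e-06). DDC, which makes dopamine from its precursor, measured 111, 108 and 112 CPM in siHAND2, compared with 161, 162 and 163 CPM in siMYCN, a difference of -0.55 (adjusted p = 1.31e-08). GCH1, which starts the synthesis of the cofactor tetrahydrobiopterin, went from 53.9 ± 1.87 CPM in siMYCN to 39.01 ± 3.02 CPM in siHAND2 (-0.46, adjusted p = 1.68e-05), and QDPR, which recycles that cofactor, differed by -0.25 (adjusted p = 0.00226). PTS, another enzyme of the same cofactor, differed by -0.26 (adjusted p = 0.0111), a call that was lost without siHAND2 replicate 1 (-0.19, adjusted p = 0.0551). SLC18A1, a transporter that loads monoamines into vesicles, measured 5.07, 3.72 and 5.07 CPM with siMYCN against 0.526, 0.398 and 0.284 CPM with siHAND2. It had the widest gap of the list (-2.00, adjusted p = 4.67e-09), and its level in siHAND2 was near the detection floor. CYB561, the cytochrome that supplies electrons for DBH inside granules, measured 12.4, 10.9 and 10.2 CPM after the MYCN siRNA and 3.12, 2.63 and 3.33 CPM after the HAND2 siRNA, with a control mean of 4.08 ± 0.274 CPM much nearer to siHAND2 (-1.59, adjusted p = 2.91e-09). MAOA, which breaks monoamines down, was lower too, at 265, 259 and 270.3 CPM in siHAND2 against 443, 441 and 447 CPM in siMYCN (-0.74, adjusted p = 4.94e-10). Members that missed the threshold included SPR (-0.05, adjusted p = 0.7) and PCBD1 (-0.03, adjusted p = 0.775). PNMT, SLC18A2, SLC6A3 and MAOB did not pass the filter.

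**Figure D3:**
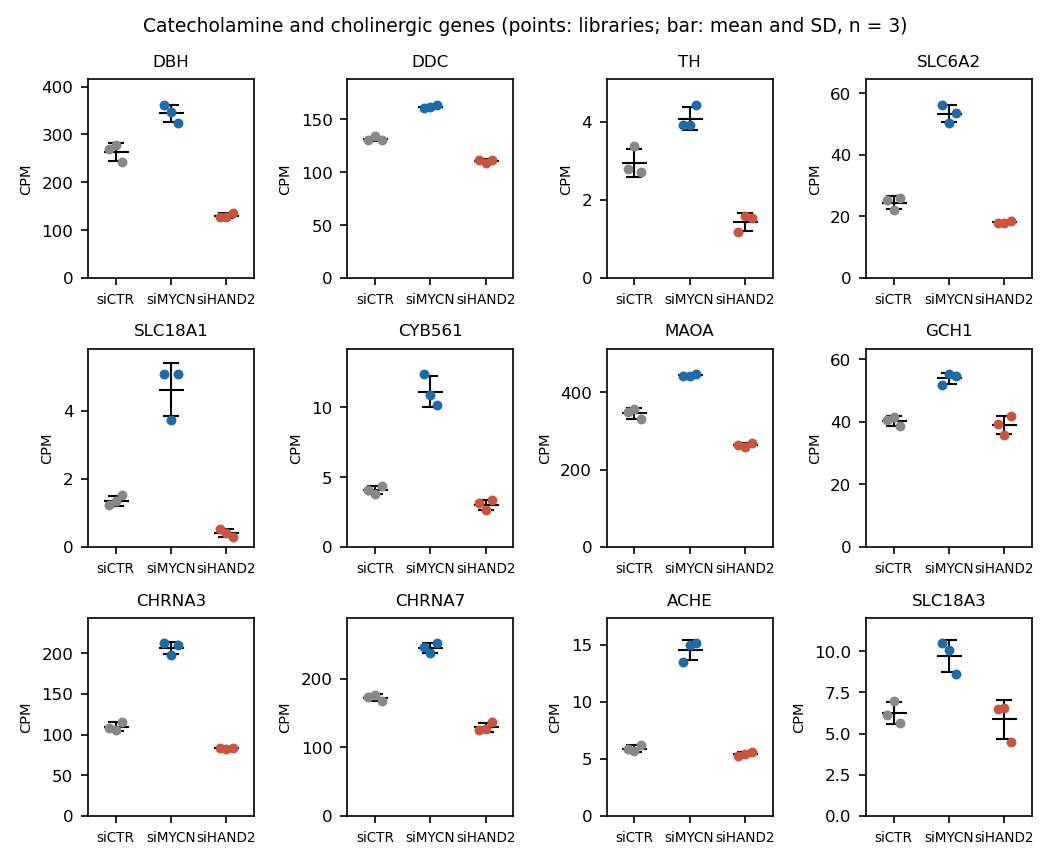
CPM (y axis, linear from 0) of 8 catecholamine genes and 4 cholinergic genes in each library by siRNA group (x axis); points are libraries, and bars are the mean and SD of 3. In all 12 panels the siMYCN points lie above the siHAND2 points, as for DBH at 344 against 130.1 CPM.

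Acetylcholine genes and secretory cargo followed a similar pattern between the knockdowns. Of 11 cholinergic genes tested, 7 were lower in siHAND2 and 1 higher, against 15.5% and 11.4% of all genes (median -0.37). Relative to the shared controls the list medians were 0.35 in siMYCN and -0.09 in siHAND2. CHRNA3, the nicotinic receptor subunit typical of autonomic ganglia, measured 83.8, 82.8 and 83.9 CPM in siHAND2, compared with 212, 197 and 209 CPM in siMYCN. The siHAND2 libraries were nearly level with each other and far below siMYCN (-1.29, adjusted p = 5.79e-12). CHRNA7, which forms a second type of nicotinic receptor, measured 246, 237 and 252 CPM with siMYCN against 125, 126 and 137 CPM with siHAND2 (-0.91, adjusted p = 1.46e-10). ACHE, the enzyme that splits acetylcholine, measured 13.49, 14.99 and 15.1 CPM after the MYCN siRNA and 5.23, 5.42 and 5.63 CPM after the HAND2 siRNA. For ACHE the control mean of 5.90 ± 0.287 CPM was close to the siHAND2 level, and siMYCN stood apart from both (-1.27, adjusted p = 2.91e-09). SLC18A3, the vesicular acetylcholine transporter, differed by -0.65 (adjusted p = 0.000538), and CHRM1, a muscarinic receptor, by -1.24 (adjusted p = 2.3e-07). CHRM2, another muscarinic receptor, was the member that was higher in siHAND2 (0.26, adjusted p = 0.00414). CHAT, the synthesis enzyme, did not pass the filter.

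Among granins, neuropeptides and their processing enzymes, 7 of 11 tested genes were lower in siHAND2 and 2 higher (median -0.41). Over all genes these shares were 15.5% and 11.4%. Relative to the shared controls the list medians were 0.22 in siMYCN and -0.03 in siHAND2. VIP, a peptide transmitter, measured 717, 755 and 767 CPM in siHAND2, compared with 1086, 1158 and 1199 CPM in siMYCN, with no overlap (-0.62, adjusted p = 4.6e-08). CHGB, a granin that packs dense-core granules, measured 381, 376 and 367 CPM with siMYCN against 251, 207 and 218 CPM with siHAND2 (-0.73, adjusted p = 2.72e-07), and CADPS, which primes those granules for release, differed by -0.78 (adjusted p = 1.2e-08). SCG2, the granin secretogranin II (chromosome 2, 223596940 to 223602361), went the other way and measured 229, 223 and 247 CPM after the MYCN siRNA and 533, 451 and 484 CPM after the HAND2 siRNA. All 3 siHAND2 libraries exceeded all siMYCN libraries, by 2.10-fold in the means (1.07, adjusted p = 2.93e-10). Members of the list thus went both ways.

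Release machinery of synaptic vesicles was lower in siHAND2 than in siMYCN for 19 of 39 tested genes and higher for 3 (median -0.21). Over all genes these shares were 15.5% and 11.4%. Relative to the shared controls the list medians were 0.24 in siMYCN and -0.01 in siHAND2. RIMS3, a scaffold of the release site, measured 84.2, 82.8 and 88.7 CPM in siHAND2, compared with 198, 180.5 and 195 CPM in siMYCN (-1.16, adjusted p = 1.41e-11). SYT4, a synaptotagmin of secretory vesicles, measured 66.9, 64.2 and 74.7 CPM with siMYCN against 26.01, 23.3 and 27.99 CPM with siHAND2 (-1.38, adjusted p = 1.48e-10), and DOC2B, a calcium sensor of spontaneous release, differed by -1.08 (adjusted p = 2.98e-10). None of these 3 genes overlapped between the groups, but they were named for a small p. Of all genes tested, 38.7% did not overlap. SV2C, a vesicle glycoprotein, was at 226 ± 8.67 CPM with siMYCN and 122 ± 7.40 CPM with siHAND2 (SD, n = 3; -0.89, adjusted p = 8.31e-10). Of 38 voltage-gated and related channel genes, 18 were lower and 9 higher, or 71.1% in either direction beside 26.9% of all genes. KCNH6, a potassium channel of the ERG type, differed by -1.05 (adjusted p = 1.76e-08) and KCNH1 by -0.90 (adjusted p = 3.59e-08). CACNA1G, a low-voltage calcium channel, was the exception in size, with 0.967, 1.09 and 1.17 CPM after the MYCN siRNA and 7.86, 6.73 and 7.09 CPM after the HAND2 siRNA, and was 6.73-fold higher in siHAND2 (1.99, adjusted p = 3.88e-10).

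The largest falls from siMYCN to siHAND2 were in genes with varied roles, and in each of the 14 that were largest by the naming rule the siHAND2 libraries lay below the siMYCN libraries, a condition of that rule. PRSS35, a secreted protein resembling serine proteases (chromosome 6, 83512534 to 83525704), measured 3.42, 3.19 and 3.83 CPM in siHAND2, compared with 24.3, 30.9 and 25.3 CPM in siMYCN. The siMYCN libraries were 7.71-fold higher in the mean (-2.63, adjusted p = 3.05e-11). PALMD, palmdelphin, a paralemmin-like cytosolic protein (chromosome 1, 99646113 to 99694541), measured 37.3, 38.2 and 37.8 CPM with siMYCN against 5.43, 6.81 and 7.79 CPM with siHAND2 (-2.35, adjusted p = 8.47e-12). PMP22, peripheral myelin protein, a tetraspan membrane protein also found outside Schwann cells (chromosome 17, 15229777 to 15265326), measured 149, 148 and 154 CPM after the MYCN siRNA and 32.5, 32.7 and 34.3 CPM after the HAND2 siRNA. The 3 libraries of each group were nearly level with each other, and the difference of -2.15 had an adjusted p of 1.11e-14. PMP22 is shared with myelinating cells, while the Schwann markers summed to under 4 CPM here.

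Receptors and signalling proteins were among them. PROKR2, a receptor for prokineticins, fell to 0.855, 1.43 and 1.81 CPM in siHAND2 from 8.90, 10.2 and 9.59 CPM in siMYCN (-2.18, adjusted p = 8.98e-10). PTGFR, the prostaglandin F receptor, measured 16.5, 16.7 and 23.2 CPM in siHAND2, compared with 74.6, 85.6 and 84.3 CPM in siMYCN (-2.07, adjusted p = 1.05e-10). DOK4, an adaptor of receptor tyrosine kinases including RET, measured 227, 185 and 219 CPM with siMYCN against 53.1, 53.5 and 54.3 CPM with siHAND2 (-1.95, adjusted p = 1.2e-11). FBP1, an enzyme of gluconeogenesis, differed by -2.13 (adjusted p = 1.9e-10), LAMP5, a brain-type lysosome-associated membrane protein, by -1.87 (adjusted p = 9.03e-13), and ADAM12, a membrane metalloprotease, by -1.73 (adjusted p = 1.48e-10). The other 5 were FAM167A (-1.91), CSGALNACT1 (-1.84), an enzyme of chondroitin sulfate synthesis, HMCN2 (-1.78), PRR16 (-1.76) and COL6A6 (-1.67), a collagen VI chain. Against the shared siCTR libraries, the 14 genes differed by 0.18 to 0.90 in siMYCN and by -1.92 to -0.95 in siHAND2.

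RefSeq windows were given for 12 of these 14 genes, 20 windows in all, and 4 windows of 3 genes held CATCTG on either strand, against 10.2% of the windows of all genes tested. None of the 12 windows given for tested catecholamine genes held it, that of DBH included. PALMD and LAMP5 are shown as the 2 of the 3 genes with the larger differences. The windows lie at chr1:99645863-99646162, plus strand, and chr20:9514340-9514639, plus strand (GRCh38.p14), read 5′ to 3′ along the gene, with the hexamer in capitals.
PALMD: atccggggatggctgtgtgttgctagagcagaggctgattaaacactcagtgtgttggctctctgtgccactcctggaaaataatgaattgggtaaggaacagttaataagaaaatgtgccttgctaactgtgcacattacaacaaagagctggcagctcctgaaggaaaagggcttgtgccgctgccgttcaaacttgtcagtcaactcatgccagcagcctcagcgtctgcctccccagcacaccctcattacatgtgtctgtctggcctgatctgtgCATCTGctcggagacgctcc
LAMP5: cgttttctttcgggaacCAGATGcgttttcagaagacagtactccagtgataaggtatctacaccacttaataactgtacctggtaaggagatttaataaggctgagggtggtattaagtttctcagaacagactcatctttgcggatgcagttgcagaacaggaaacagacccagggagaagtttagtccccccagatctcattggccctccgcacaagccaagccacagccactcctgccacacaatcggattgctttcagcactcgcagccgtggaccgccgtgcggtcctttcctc
The match lies 30 bases after the start in PALMD and 233 bases before it in LAMP5, where it reads CAGATG. Over all genes lower in siHAND2 the share of windows was 11.8%, over all genes higher in siHAND2 10.4%. For genes at least 2-fold different it was 17.5% among those lower and 12.6% among those higher. No match in such a window says only that these letters are not there.

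Among the 14 largest gains of siHAND2 over siMYCN by the naming rule, DCN, LUM, COL1A2, COL12A1 and COL14A1 belong to the matrix list. DCN, the small proteoglycan decorin (chromosome 12, 91140484 to 91182824), measured 1.61, 1.11 and 1.17 CPM after the MYCN siRNA and 11.7, 10.2 and 11.2 CPM after the HAND2 siRNA. The siHAND2 mean was 8.50-fold the siMYCN mean (2.39, limma adjusted p = 1.07e-10), and the controls were lower still at 0.431 ± 0.0794 CPM (SD, n = 3). CLSTN2, calsyntenin 2, a synaptic membrane protein of the cadherin family (chromosome 3, 139935185 to 140577397), measured 249.8, 225 and 260.2 CPM in siHAND2, compared with 43.3, 49.4 and 49.8 CPM in siMYCN. Its difference of 2.34 (standard error 0.06, adjusted p = 2.09e-13) was next in size after DCN under the naming rule. TNFAIP6, a secreted protein that binds hyaluronan, measured 4.27, 4.45 and 3.97 CPM with siMYCN against 23.9, 20.2 and 27.3 CPM with siHAND2 (2.24, adjusted p = 9.41e-11). SSTR2, a somatostatin receptor (chromosome 17, 73165010 to 73176633), measured 23.5, 18.6 and 23.7 CPM after the MYCN siRNA and 97.1, 84.4 and 88.2 CPM after the HAND2 siRNA (1.99, adjusted p = 5.31e-11). For each of these genes the lowest siHAND2 library was above the highest siMYCN library, a condition of the naming rule.

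COL12A1, a fibril-associated collagen, measured 17.6, 15.9 and 14.2 CPM in siHAND2, compared with 2.98, 3.41 and 3.32 CPM in siMYCN (1.99, adjusted p = 3.72e-10). COL1A2, a chain of type I collagen, measured 4.15, 4.41 and 4.69 CPM with siMYCN against 18.3, 15.2 and 14.3 CPM with siHAND2 (1.64, adjusted p = 2.07e-09), COL14A1 differed by 1.76 (adjusted p = 1.95e-09) and LUM, lumican, by 1.61 (adjusted p = 1.89e-11). PAPPA, a protease that frees insulin-like growth factors from a binding protein, differed by 1.94 (adjusted p = 6.43e-10) and ADAMTS5, a protease that cuts proteoglycans, by 1.76 (adjusted p = 7.7e-10). EPAS1, the hypoxia-inducible factor 2 alpha subunit, which is active in sympathoadrenal cells, measured 2.30, 1.496 and 1.68 CPM after the MYCN siRNA and 9.73, 8.88 and 8.68 CPM after the HAND2 siRNA (1.85, adjusted p = 2.8e-09). FAT3, a giant cadherin, differed by 1.72, NEGR1, a neuronal adhesion molecule, by 1.70 and CHODL, a membrane lectin, by 1.69. Against the shared siCTR libraries, the 14 genes differed by -0.52 to 1.03 in siMYCN and by 1.18 to 3.07 in siHAND2.

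**Figure D4:**
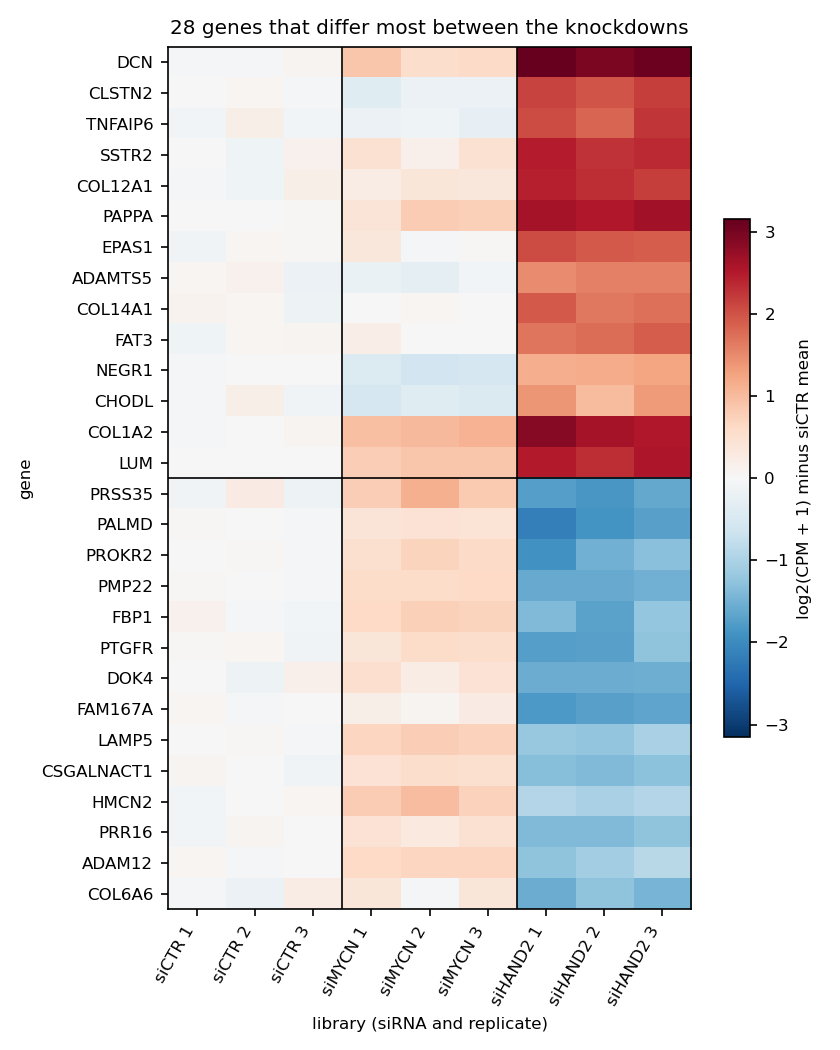
Rows are the 14 genes with the largest positive and the 14 with the largest negative difference siHAND2 minus siMYCN under the naming rule, columns are the 9 libraries, and colour is log2(CPM + 1) minus the siCTR mean of that gene. The 3 siHAND2 columns are alike and stand apart from siMYCN in every row, which the naming rule required, with PRSS35 at -2.63 and DCN at 2.39.

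Over the whole matrix list, 19 of 38 tested genes were higher in siHAND2 and 4 lower, against 11.4% and 15.5% of all genes, with a median of 0.18. VCAN, the large proteoglycan versican (chromosome 5, 83471618 to 83582303), measured 1867, 1738 and 1974 CPM in siHAND2, compared with 934, 930.1 and 1028 CPM in siMYCN, 1.93-fold higher in siHAND2 (0.95, adjusted p = 7.81e-10). The list summed to 3038 to 3207 CPM in siMYCN and 3948 to 4290 CPM in siHAND2. VCAN alone made up most of that rise. The 4 lower members of the list were TNR (-1.14), TNC, TIMP3 and FMOD. Of the 7 fibroblast markers that passed the filter, 4 were higher (DCN, COL1A2, PDGFRA and PDGFRB) and 1 lower (THY1) in siHAND2. The marker list shares DCN, COL1A1, COL1A2 and COL3A1 with the matrix list, so the lists are not independent. All 9 fibroblast markers found in the table summed to 337 to 341 CPM in siMYCN and 579 to 656 CPM in siHAND2, and PDGFRA made up most of that rise. Type I collagen was not uniform: COL1A1 was at 0.526, 0.279 and 0.284 CPM in the siHAND2 libraries, and at 0.685, 0.46 and 0.377 CPM in siMYCN, and TAGLN stayed under 1 CPM. The part of fibroblast-like cells in the matrix result was not tested. Among transcription factors of the mesenchymal neuroblastoma state, 8 of 19 were higher in siHAND2 and 3 lower, against 11.4% and 15.5% of all genes. ZEB2, a repressor of epithelial genes, measured 38.02, 34.2 and 41.5 CPM with siMYCN against 66.8, 64.3 and 61.1 CPM with siHAND2 (0.75, adjusted p = 1.78e-07), and BNC2, a zinc finger factor of fibroblasts, differed by 0.79 (adjusted p = 2.43e-08).

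Receptor tyrosine kinases split between the 2 directions. Of 27 tested genes, 11 were lower and 5 higher in siHAND2, against 15.5% and 11.4% of all genes. RET, the receptor for ligands of the GDNF family (chromosome 10, 43077064 to 43130351), measured 683, 639 and 655 CPM after the MYCN siRNA and 267, 253 and 265 CPM after the HAND2 siRNA. The siMYCN libraries were 2.52-fold higher, with the control mean of 369 ± 9.78 CPM between the groups (-1.33, adjusted p = 9.03e-13). ALK, a kinase of developing sympathetic neurons (chromosome 2, 29192774 to 29921586), measured 203, 210.4 and 192 CPM in siHAND2, compared with 369.7, 352 and 360.0 CPM in siMYCN (-0.83, adjusted p = 6.61e-10). PDGFRA, a receptor for platelet-derived growth factors typical of mesenchyme (chromosome 4, 54229280 to 54298245), moved the opposite way and measured 142, 148 and 142 CPM with siMYCN against 355, 309 and 359 CPM with siHAND2. The siHAND2 mean was 2.37-fold higher, and siMYCN stayed near the control mean of 121 ± 4.49 CPM (1.24, adjusted p = 3.54e-11). PDGFRB differed by 0.85 (adjusted p = 1.56e-08).

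Axon guidance genes were divided evenly, 11 higher and 11 lower of 44 tested, against 11.4% and 15.5% of all genes. SEMA3C, a secreted semaphorin, measured 54.6, 63.7 and 64.01 CPM after the MYCN siRNA and 23.3, 21.5 and 22.7 CPM after the HAND2 siRNA (-1.39, adjusted p = 6.87e-11). EFNB2, a membrane ephrin, differed by -1.30 (adjusted p = 5.67e-10) and PLXNA4, a semaphorin receptor, by -1.30 (adjusted p = 1.76e-08). Of 27 transmitter receptors, 6 were higher, SSTR2 among them, and 7 lower, among them the GABA-B subunit GABBR1 (-0.72, limma adjusted p = 7.1e-08). Both directions together made up 48.1% of the receptors tested, beside 26.9% of all genes.

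Transcription factors of the noradrenergic state did not shift as a group. Of 23 tested, 9 were higher in siHAND2 and 8 lower, against 11.4% and 15.5% of all genes, with a median of 0.00. HAND1, the paralog of HAND2, measured 12.1, 10.1 and 11.02 CPM in siHAND2, compared with 19.4, 17.9 and 18.9 CPM in siMYCN (-0.71, adjusted p = 1.26e-06). TFAP2B, an AP-2 factor of sympathetic neurons, differed by -0.51 (adjusted p = 1.13e-07). ISL1, a LIM homeodomain factor of the same neurons, was higher in siHAND2 (0.32, adjusted p = 1.75e-05), as was EBF1 (0.50, adjusted p = 1.65e-07). LMO3, a LIM-only cofactor, measured 0.524, 0.729 and 0.857 CPM with siMYCN against 4.37, 4.58 and 4.43 CPM with siHAND2. It was low everywhere, and the groups did not overlap (1.69, adjusted p = 1.88e-08).

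Proteins that pair with helix-loop-helix factors or block them were more often higher in siHAND2, 12 of 23 tested against 3 lower (median 0.27). Over all genes 11.4% were higher and 15.5% lower. The inhibitors ID1, ID2, ID3 and ID4 bind E-proteins and keep them from DNA, and all were higher, by 0.52, 0.37, 0.90 and 1.37, with adjusted p of 0.00366, 0.00156, 0.000144 and 3.08e-07 (limma). ID3 measured 13.3, 11.6 and 14.6 CPM after the MYCN siRNA and 26.1, 30.1 and 20.8 CPM after the HAND2 siRNA, and ID4 measured 6.05, 5.42 and 5.49 CPM in siHAND2, compared with 1.37, 1.34 and 2.09 CPM in siMYCN. Both were separate between the groups, as were 38.7% of all genes tested. Of the E-proteins that pair with HAND2, TCF12 measured 153, 155 and 164 CPM with siMYCN against 189.6, 182 and 197 CPM with siHAND2 (0.27, adjusted p = 0.000167), while TCF3 (0.07, adjusted p = 0.433) and TCF4 (-0.11, adjusted p = 0.0677) missed the threshold. TCF4 passed under quantile normalization (-0.15), with the replicate block and without siHAND2 replicate 3 (-0.14). The LIM-domain cofactors LMO1 (0.62, adjusted p = 1.31e-05), LMO4 (0.40, adjusted p = 1.71e-05) and LDB2 (0.90, adjusted p = 2.45e-08) were also higher. HEY1, a repressor downstream of Notch, was lower (-0.61, adjusted p = 4.56e-05) and HES1, another one, was higher (0.61, adjusted p = 0.000425).

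In the MYC network, MYC itself was the gene that differed most. Control cells held 0.642, 0.374 and 0.617 CPM of MYC, siMYCN cells 2.01, 1.496 and 2.16 CPM and siHAND2 cells 4.80, 5.496 and 3.83 CPM. The order was the same in every library, and siHAND2 exceeded siMYCN by 0.98 (adjusted p = 4.3e-05). In these libraries 1 CPM stood for 24.8 to 30.4 reads. MAX, the partner of MYCN, measured 36.9, 33.8 and 36.97 CPM after the MYCN siRNA and 38.2, 36.6 and 38.2 CPM after the HAND2 siRNA and missed the threshold (0.07, adjusted p = 0.379; 95% interval -0.05 to 0.18). The antagonist MXI1 was higher in siHAND2 (0.22, adjusted p = 0.00222). MLXIP passed by a margin (0.14, adjusted p = 0.0482) that did not survive 11 of 19 alternatives, the omission of any library but siHAND2 replicate 1 among them, with values of 0.11 to 0.16. Of 11 network genes tested, 3 were higher (MYC, MXI1 and MLXIP) and 0 lower, a share of 27.3% near the 26.9% of all genes.

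Ribosomal protein transcripts were lower in siMYCN than in siHAND2 almost without exception. Of 79 tested, 73 were higher in siHAND2 and 0 lower, against 11.4% and 15.5% of all genes. Their median was 0.30, with a range from 0.02 (RPL28) to 0.47 (RPL26). Their summed level was 45905 ± 1173 CPM with siMYCN and 56219 ± 924 CPM with siHAND2 (SD, n = 3), below the 63231 ± 1649.9 CPM of control cells, so they held 4.59% of all CPM in siMYCN and 5.62% in siHAND2. MYCN transcript had the reverse order, lower in siHAND2 than in siMYCN, and the reason was not tested. RPL26 (chromosome 17, 8377516 to 8383213) measured 765, 751 and 866 CPM in siHAND2, compared with 567, 580.3 and 574 CPM in siMYCN, and no siMYCN library reached a siHAND2 library (0.47, adjusted p = 2.26e-06). RPL7A measured 933, 937 and 908 CPM with siMYCN against 1219.9, 1176 and 1217 CPM with siHAND2 (0.38, adjusted p = 1.71e-06). Ribosomal protein genes have many processed copies in the genome, and how reads that fit several places were assigned is not given in the sources used here.

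Factors that process ribosomal RNA and assemble the subunits differed less. Of 58 tested, 23 were higher in siHAND2 and 0 lower, against 11.4% and 15.5% of all genes, with a median of 0.11. Relative to the shared controls their medians were -0.36 in siMYCN and -0.23 in siHAND2. NPM1, nucleophosmin, the abundant nucleolar chaperone (chromosome 5, 171387116 to 171411137), measured 1146, 1125 and 1152 CPM after the MYCN siRNA and 1419, 1373 and 1551 CPM after the HAND2 siRNA (0.34, adjusted p = 3.61e-05). GNL3, nucleostemin, a nucleolar GTPase, measured 129.8, 119.8 and 139 CPM in siHAND2, compared with 108, 112 and 108 CPM in siMYCN (0.24, adjusted p = 0.00201), and UTP20, a component of the small-subunit processome, measured 62.1, 59.2 and 66.3 CPM with siMYCN against 71.4, 73.3 and 76.6 CPM with siHAND2 (0.24, adjusted p = 0.00216). Every siHAND2 library of these 3 genes was above every siMYCN library and below the control mean. They were named for a small p, and 38.7% of all genes tested did not overlap between siHAND2 and siMYCN.

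The canonical site of MYCN with MAX is the E-box CACGTG, which reads the same on both strands, and its frequency was set beside these values. RefSeq windows were given for 49 of the 58 biogenesis genes, and 25 of their 60 windows (41.7%) held CACGTG, against 9.43% of the windows of all genes tested and 5.13% (4 of 78) of those of ribosomal proteins. GNL3 and UTP20 are shown as the 2 biogenesis genes with the smallest p among those with a match. Their windows lie at chr3:52685782-52686081, plus strand, and chr12:101279855-101280154, plus strand (GRCh38.p14), with CACGTG in capitals.
GNL3: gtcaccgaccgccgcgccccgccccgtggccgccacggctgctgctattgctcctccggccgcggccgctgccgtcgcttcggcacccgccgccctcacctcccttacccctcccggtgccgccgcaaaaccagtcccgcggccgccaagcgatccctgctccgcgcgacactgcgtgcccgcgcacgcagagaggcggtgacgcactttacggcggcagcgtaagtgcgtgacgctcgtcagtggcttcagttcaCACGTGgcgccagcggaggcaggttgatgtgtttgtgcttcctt
UTP20: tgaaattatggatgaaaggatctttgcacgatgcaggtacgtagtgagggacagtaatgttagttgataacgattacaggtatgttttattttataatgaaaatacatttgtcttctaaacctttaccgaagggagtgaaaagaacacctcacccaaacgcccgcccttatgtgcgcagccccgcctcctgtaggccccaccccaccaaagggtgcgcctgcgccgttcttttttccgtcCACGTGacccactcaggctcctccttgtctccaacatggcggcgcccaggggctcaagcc
The hexamer lies 6 bases after the start of GNL3 and 10 bases before that of UTP20. A match describes letters, not binding. Of the 24 biogenesis genes with a match 8 were higher in siHAND2, and of the 25 without one 12 were.

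**Figure D5:**
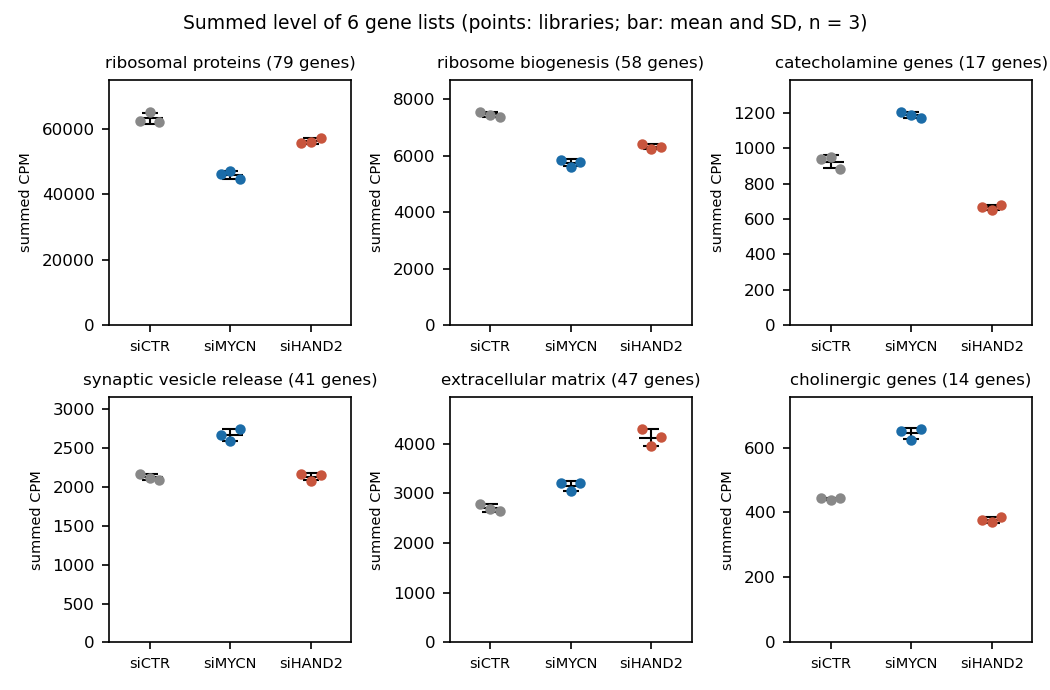
Summed CPM (y axis, linear from 0) of 6 gene lists in each library by siRNA group (x axis); points are libraries, and bars are the mean and SD of 3. Both ribosome lists are lowest in siMYCN, and the catecholamine list falls from 1189 CPM in siMYCN to 667 CPM in siHAND2. The matrix list is highest in siHAND2, where VCAN alone makes up most of the rise over siMYCN.

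Enzymes of nucleotide, polyamine and one-carbon synthesis leaned the same way, 15 higher and 3 lower of 38 (median 0.08). Over all genes 11.4% were higher and 15.5% lower. ODC1, the first enzyme of polyamine synthesis, measured 201, 194 and 199 CPM after the MYCN siRNA and 234, 233 and 231 CPM after the HAND2 siRNA (0.23, adjusted p = 0.000223). PHGDH, which opens serine synthesis, measured 208, 194 and 181 CPM in siHAND2, compared with 163, 147 and 161 CPM in siMYCN (0.30, adjusted p = 0.000322), and PAICS, an enzyme of purine synthesis, differed by 0.23 (adjusted p = 0.000615). OAZ1, the antizyme that inhibits ODC1, was lower in siHAND2 (-0.28, adjusted p = 4.3e-05).

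Of 46 DNA replication genes, 11 were higher in siHAND2 and 2 lower, against 11.4% and 15.5% of all genes. In either direction this is 28.3%, near the 26.9% of all genes, but the calls leaned to higher in siHAND2. Of 46 mitotic genes 2 were higher and 4 lower, or 13.04% in all. The replication count fell to 5 higher without siMYCN replicate 1 or without siMYCN replicate 3 and to 6 without siHAND2 replicate 1, so it depended on single libraries. The lower count there was 0 without siMYCN replicate 1. RFC3, a subunit of the clamp loader, had the smallest p (0.35, adjusted p = 5.1e-06). Mitotic genes lower in siHAND2 numbered 2 without siMYCN replicate 1 and 7 without siHAND2 replicate 1. FOXM1, a factor that drives mitotic genes, was lower in siHAND2 (-0.22, adjusted p = 0.0025) and CDC25A, a phosphatase that activates cyclin-dependent kinases, was higher (0.17, adjusted p = 0.00611).

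Of 27 p53 targets, 7 were higher and 3 lower in siHAND2, the lower count being 1 without siMYCN replicate 3 or siHAND2 replicate 2. For comparison with this list and those that follow, 11.4% of all genes tested were higher and 15.5% lower, or 26.9% in either direction. CCNG1, cyclin G1, differed by 0.32 (adjusted p = 3.31e-05) and GADD45A, a stress-induced inhibitor of growth, by -0.45 (adjusted p = 6.92e-05). Cholesterol synthesis and uptake genes were lower in siHAND2 for 14 of 28 and higher for 1 (median -0.15), in all 53.6%. Relative to the shared controls the list medians were 0.14 in siMYCN and -0.03 in siHAND2. SQLE, squalene epoxidase, differed by -0.23 (adjusted p = 0.000421). Glycolytic and hypoxia-induced genes were lower for 11 of 38 and higher for 2, in all 34.2%. The higher count was 4 without siHAND2 replicate 1. VEGFA, the vascular growth factor, measured 79.9, 78.5 and 78.9 CPM with siMYCN against 56.1, 58.8 and 63.2 CPM with siHAND2 (-0.41, adjusted p = 7.98e-06) although EPAS1 was higher in siHAND2. Interferon-induced genes held 1 lower member, OAS1, of 16 tested, or 6.25%.

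Genes near MYCN on chromosome 2 were compared because neighbours are often amplified with it. Of 9 tested, 1 was higher in siHAND2 and 2 were lower, a share of 33.3% near the 26.9% of all genes. DDX1, the RNA helicase gene next to MYCN and the higher one, measured 1316, 1339 and 1388 CPM after the MYCN siRNA and 1611, 1460.1 and 1541 CPM after the HAND2 siRNA (0.19, adjusted p = 0.00437). The call was lost under quantile normalization, where the difference was 0.02. NBAS, beyond DDX1, missed the threshold (0.14, adjusted p = 0.0561) but passed in 5 of 19 alternatives, median-ratio and quantile scaling, the replicate block, and the omission of siMYCN replicate 3 (0.17) or siHAND2 replicate 2 (0.18). TRIB2, a pseudokinase farther away, measured 222, 226 and 227 CPM in siHAND2, compared with 477, 444 and 483 CPM in siMYCN, 2.08-fold higher in siMYCN (-1.05, adjusted p = 2.7e-11). LPIN1 passed by a small margin (-0.13, adjusted p = 0.0489) that was lost in 12 of 19 alternatives, with values of -0.16 to -0.10, including the omission of any siCTR library, siMYCN replicate 2 or 3, or siHAND2 replicate 1 or 2.

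Some genes lay on opposite sides of control. Both comparisons with control share the siCTR libraries, so values are given side by side and no overlap is drawn from them. Among genes below control in siMYCN and above it in siHAND2, NEGR1 started from 17.4, 18.04 and 18.03 CPM in control cells, with 12.97, 11.5 and 11.96 CPM after the MYCN siRNA and 40.4, 41.1 and 43.1 CPM after the HAND2 siRNA, or -0.52 in siMYCN and 1.18 in siHAND2 against control. LTBP1, which anchors latent TGF-beta in matrix, measured 32.9, 30.3 and 34.6 CPM in control cells and 22.6, 23.2 and 21.9 CPM with siMYCN against 50.1, 46.04 and 46.1 CPM with siHAND2 (-0.51 in siMYCN and 0.53 in siHAND2 against control). Others were CHODL, PLS3, an actin-bundling protein (-0.52 in siMYCN and 0.39 in siHAND2), CITED2, a coactivator that restrains hypoxia-inducible factors (-0.39 in siMYCN and 0.65 in siHAND2), and IKBKB, a kinase of the NF-kappa-B pathway (-0.38 in siMYCN and 0.42 in siHAND2). Among genes with the reverse order, PRSS35 measured 12.8, 16.8 and 12.2 CPM in siCTR, FBP1 10.2, 8.79 and 8.55 CPM and LAMP5 45.9, 47.8 and 45.1 CPM, each between its levels in the knockdowns. SLC8A3, a sodium-calcium exchanger, gave 0.70 in siMYCN and -0.92 in siHAND2 against control, and NFKBIE, an inhibitor of NF-kappa-B, 0.75 in siMYCN and -0.70 in siHAND2. Values against control for HMCN2 were 0.83 in siMYCN and -0.95 in siHAND2.

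Other genes moved alike. HK2, hexokinase 2, the first step of glycolysis, measured 148, 136 and 129 CPM in control cells and 81.9, 82.9 and 81.7 CPM after the MYCN siRNA and 78.2, 79.7 and 82.9 CPM after the HAND2 siRNA. The direct difference was -0.03 with a 95% interval of -0.14 to 0.07 (adjusted p = 0.658), narrow beside the fall from control in either knockdown (-0.74 in siMYCN and -0.77 in siHAND2). PLD6, a mitochondrial phospholipase, differed by 0.05 (interval -0.07 to 0.16) and SLC35F2, a solute carrier, by -0.13 (-0.27 to 0.02). Among genes higher in both, SCGN, the calcium sensor secretagogin, measured 17.9, 18.3 and 20.4 CPM in control cells and 38.8, 38.3 and 38.5 CPM in siHAND2, compared with 37.2, 33.6 and 40.1 CPM in siMYCN, with a direct difference of 0.06 (-0.08 to 0.20). MARCHF4, a ubiquitin ligase, differed by 0.01 (-0.17 to 0.20), and RAB3B, a vesicle GTPase, by -0.21 (-0.45 to 0.04). A p that misses the threshold does not show equality, and these genes were chosen for a small direct difference, so the intervals are a description.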

How the data were processed

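RNA-seq of total RNA from 9 LAN5 libraries (siCTR, siMYCN and siHAND2, 3 each, grouped by the labels) was deposited by the authors as 1 table of CPM for 25084 genes. The submitters' processing notes name STAR 2.5.1, Partek and the builds hg19 and GRCh37, whereas the positions in the table match GRCh38: of 18215 symbols found in a GRCh38 gene table, 86.1% start within 1000 bp, against 4.49% of 18474 for GRCh37. Coordinates are printed as GRCh38, with the end 1 base before the stop in the table. The counting rule and its use of strand are not given in the sources used here. Depth (21.1 to 32.7 M reads over the 9 libraries) was read from the steps between low CPM values. Only about 80% of values were whole steps, below the 95% needed, so no count model was used.

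A gene was tested when 3 or more of the 9 libraries reached 1 CPM (14495 of 25084 genes), on log2(CPM + 1), which understates the change of low genes. All 9 libraries entered 1 limma 3.58.1 fit (R 4.3.3, intensity trend), contrast siHAND2 minus siMYCN, two-sided, with Benjamini-Hochberg adjustment over all genes tested and a threshold of 0.05. The fit was tested on simulated data. Genes named are the targets and their antisense genes, the 14 largest differences per direction (mean of at least 5 CPM, libraries apart, values not identical to another gene), the 6 largest per direction that oppose each other against control, 3 alike per direction, the 4 members of each list with the smallest p, and members of the catecholamine, cholinergic, regulator, helix-loop-helix, MYC network and MYCN locus lists. TNR, TNC, TIMP3, FMOD, COL1A1, TAGLN, THY1 and RPL28 were named after their values were seen. Results of some genes are not reported here. Members and lists were chosen with earlier results of these data known. Alternatives were pseudocounts of 0.1 and 5, no filter, a filter of 5 CPM, median-ratio and quantile scaling, a fit without siCTR, eBayes without its trend, a block on replicate number, precision weights, and each library left out.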

Additional observations from a re-analysis of the deposited data

How the results depend on the processing

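No named gene changed sign while past the threshold, but the balance of directions over all genes did turn. The number of genes that differed was 3397 to 4000 under the 8 alternatives of pseudocount, filter, scaling, group choice and trend, 3890 with precision weights, and 2923 (without siMYCN replicate 1) to 3992 (without siHAND2 replicate 1) when a library was left out. The number at least 2-fold different followed the pseudocount, from 197 to 322 with 0.1 and 100.0 with 5, and was 350.0 with precision weights. Median-ratio and quantile scaling moved the share of higher genes among those that differed from 42.4% to 49.6% and 51.9%, so the excess of lower genes did not hold there. Of 153 genes open to naming that passed the threshold, 143 held in all 19 alternatives. Many of them were chosen by size or p in these same data, so that count does not describe the calls at large. Of all 3892 calls, 72.6% remained without siMYCN replicate 1 and 95.2% without siCTR replicate 3, the extremes when a library was left out. Whether the replicate numbers pair the libraries was not settled. Deviations of same-numbered siMYCN and siHAND2 libraries correlated by 0.31, -0.04 and 0.17, and those of differently numbered libraries by -0.30 to 0.14. With the replicate block 4689 genes differed, the 3892 included. Lists with few calls moved most: 4 mitotic and 4 hypoxia genes were higher under median-ratio or quantile scaling, against 2 each. At 1 CPM the counting error by itself is 17.5% to 21.8% of the value, which limits low genes such as MYC and LMO3.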
